A study of Mus musculus with 35 samples.

Results

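Transcripts of 44 cell cycle and proliferation genes were followed in mouse lung, 18 of them genes of DNA replication (S phase) and 26 genes of mitosis. The members are a list of symbols that was chosen with earlier results of these data known. They were matched to array probes through RefSeq accessions, and make up 44 of the 20660 genes with a symbol on the array. The array carried 59 probes for them, and 12 members had more than 1 probe. Of the 44 members, 40 (16 replication and 24 mitotic) were measured well enough to be tested, and the brightest probe stood for each gene.

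The lungs came from female C57BL/6 mice aged 5 to 7 weeks, taken 24 h after a single instillation of 40 µl into the trachea. There were 7 groups of 5 arrays. The control group received 0 µg, and the other groups received 18 or 54 µg per animal of a code-named material (NRCWE-043, NRCWE-044 or else NRCWE-045). The series title calls these nanomaterials and names the ranking of their effect on lung pathways as the aim; the labels do not give the control vehicle. RNA was taken from random sections of lung, so each array averages over all cell types of a section. Whether the 5 arrays of a group stand for 5 mice is not said in the labels, so the p-values reflect only sample-to-sample spread, part of which may be technical.

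A cell that leaves rest first passes a checkpoint governed by cyclin D and cyclin E kinases, which free the E2F transcription factors from the retinoblastoma protein. E2F factors then switch on the replication genes: the MCM helicase that is loaded on DNA and opens it, the sliding clamp PCNA, and the enzymes that make nucleotides. Mitotic genes, which build the spindle, check the attachment of chromosomes and drive entry into and exit from mitosis, are switched on later, by complexes with B-MYB (Mybl2) and FOXM1. Most cells of an adult lung are at rest, with slow renewal of epithelium, endothelium and resident macrophages, and inflammation can bring dividing or recently divided cells from blood and marrow.

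Each value is a log2 ratio of lung RNA, labelled with Cy5, to a universal reference RNA from 11 mouse cell lines, labelled with Cy3. A change is a difference of group means on that scale. Between 42.8 and 69.3% of probes on an array lay well above background in the lung channel, at median signals of 85.5 to 345.5, and the number of arrays limits the precision. The brightest arrays were both of NRCWE-044, sample 23 at 18 µg (345.5) and sample 24 at 54 µg (230). The other arrays had median signals of at most 136. All 40 tested members were lower in lung than in the reference when averaged over the groups, replication members at mean log2 ratios of -3.37 to -0.57 and mitotic members at -3.91 to -0.32. The tissue label was checked on lung markers: all 10 lung markers looked at, among them the surfactant gene Sftpc, lay above background on 35 of 35 arrays. Heart and adipose markers were high on some arrays of several groups. Of these, 5 chosen arrays (control samples 2 and 29, and samples 4, 18 and 34 of NRCWE-044 at 54 µg) were also left out together. Others stayed in. Mean heart marker ratios were 2.92 on sample 13 of NRCWE-045 at 18 µg and 2.78 on sample 32 of NRCWE-045 at 54 µg. On sample 23 of NRCWE-044 at 18 µg the heart mean was 3.13, and on sample 9 of NRCWE-043 at 54 µg the adipose mean was 4.12. Calls lost without the 5 arrays cannot be told apart from the effect of having fewer arrays.

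Of the members, 32 lay above background in lung on all 35 arrays. Ccne2 (a cyclin E) and Aurkb (the kinase of the chromosomal passenger complex) lay above background on 0 arrays, in lung and in the reference alike, and Chek1 (a checkpoint kinase) did so on 6. Cdk1, the kinase that drives entry into mitosis, had 3 probes, of which the best seen in lung lay above background on 4 of 35 arrays. The Cdk1 probe that lay above background in the reference on all 35 arrays gave log2 ratios of -2.02, -1.29, -1.27, -1.26 and -1.19 in controls, -1.42, -1.35, -1.17, -0.92 and -0.85 at 54 µg of NRCWE-043, and -1.85, -1.48, -1.35, -0.99 and -0.95 at 54 µg of NRCWE-044. The groups overlapped, and since lung was not above background these ratios are upper bounds. These 4 members were not tested. Among the tested members Cenpf lay above background on 5 arrays, Kif2c on 10, Cdc45 on 16 and Cdc6 on 19, so that their changes are less certain than those of the Mcm genes, which were above background throughout.

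Promoter sequences were available in RefSeq (GRCm38.p6) for 37 members, as 40 windows of 250 bases before to 50 bases after the annotated start; 3 members had more than 1 window. They are shown because replication and mitotic genes are known for different promoter motifs; whether a motif bears on a change was not tested. An E2F core was searched as TTCCCGC or as TTCGCGC or as TTGCCGC or as TTGGCGC, the cell cycle genes homology region (CHR) as TTTGAA or TTCGAA, and the CCAAT box as CCAAT, each on both strands; the TTGGCGC core on 1 strand reads GCGCCAA on the other and can overlap a CCAAT box. An E2F core was found in 11 of 18 replication windows (61.1%) and in 3 of 22 mitotic windows (13.6%), against 9.6% of all 32841 windows of the table. A CHR was found in 17 of 22 mitotic windows (77.3%) and 3 of 18 replication windows (16.7%), against 19.2% of all. A CCAAT box was found in 12 of 18 replication windows (66.7%) and 18 of 22 mitotic windows (81.8%), against 37.4% of all, and both a CHR and a CCAAT box in 16 of 22 mitotic windows (72.7%), against 7.5% of all. The members' windows were richer in G and C, with medians of 57.5% (replication) and 59.7% (mitotic) against 52.7%. A match is a description of letters and not a shown binding site, and these motifs were chosen for their known link to cell cycle genes.

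The 4 replication windows printed here belong to members with some of the largest changes. Mcm3 lies at chr1:20820263-20820562 (minus strand), Mcm5 at chr8:75109259-75109558 (plus strand), Mcm6 at chr1:128359656-128359955 (minus strand) and Uhrf1 at chr17:56303087-56303386 (plus strand). Capitals mark E2F cores and CCAAT boxes, read on either strand, and each sequence runs 5′ to 3′ along its gene.
Mcm3: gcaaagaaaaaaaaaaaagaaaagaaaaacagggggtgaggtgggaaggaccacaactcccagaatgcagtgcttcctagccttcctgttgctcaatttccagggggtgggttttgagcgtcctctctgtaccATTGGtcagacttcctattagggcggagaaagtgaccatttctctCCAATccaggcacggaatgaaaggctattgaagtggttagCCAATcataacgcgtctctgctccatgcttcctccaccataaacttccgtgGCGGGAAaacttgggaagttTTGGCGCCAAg
Mcm5: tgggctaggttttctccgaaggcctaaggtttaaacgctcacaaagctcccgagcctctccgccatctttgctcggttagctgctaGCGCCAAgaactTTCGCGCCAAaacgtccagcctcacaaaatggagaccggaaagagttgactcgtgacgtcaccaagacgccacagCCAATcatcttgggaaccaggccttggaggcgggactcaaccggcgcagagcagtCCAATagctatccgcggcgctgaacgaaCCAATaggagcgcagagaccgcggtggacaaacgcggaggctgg
Mcm6: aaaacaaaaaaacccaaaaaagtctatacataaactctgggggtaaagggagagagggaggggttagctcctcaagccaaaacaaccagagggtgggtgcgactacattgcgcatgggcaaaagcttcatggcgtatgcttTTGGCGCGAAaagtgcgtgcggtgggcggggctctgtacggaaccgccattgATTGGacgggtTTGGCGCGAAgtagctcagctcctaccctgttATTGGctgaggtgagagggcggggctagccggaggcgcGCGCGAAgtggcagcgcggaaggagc
Uhrf1: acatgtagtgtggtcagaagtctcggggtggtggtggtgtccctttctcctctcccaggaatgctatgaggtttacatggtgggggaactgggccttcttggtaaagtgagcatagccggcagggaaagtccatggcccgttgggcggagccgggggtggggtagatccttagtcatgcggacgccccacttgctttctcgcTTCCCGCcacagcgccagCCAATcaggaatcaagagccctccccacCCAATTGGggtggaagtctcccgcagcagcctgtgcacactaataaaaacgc
Mcm6 holds 5 E2F core matches, Mcm3 and Mcm5 hold 3 each and Uhrf1 holds 1. In Mcm3 all 3 lie after the start, the first beginning 20 bases into the transcript, and in Mcm5 they lie upstream, beginning at -164, -152 and -149. Some of the matches share letters. In Mcm6 those beginning at -109 and -106 overlap, as do those at -46 and -43. In Mcm3 those at 40 and 43 overlap, and in Mcm5 those at -152 and -149.

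The 2 mitotic windows shown are those of Kif4, a chromosome-bound motor and the only mitotic member called in a comparison with control, at chrX:100625815-100626114 (plus strand), and of Ccnb2, a cyclin B with more than 1 CHR, at chr9:70421505-70421804 (minus strand). Capitals mark CHR motifs and CCAAT boxes; neither window holds an E2F core.
Kif4: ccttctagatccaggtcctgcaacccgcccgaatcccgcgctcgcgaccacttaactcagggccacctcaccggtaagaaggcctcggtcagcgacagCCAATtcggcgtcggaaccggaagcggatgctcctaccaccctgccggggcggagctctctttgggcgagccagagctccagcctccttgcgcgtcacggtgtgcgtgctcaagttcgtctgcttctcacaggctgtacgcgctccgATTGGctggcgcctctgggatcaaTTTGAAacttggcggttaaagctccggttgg
Ccnb2: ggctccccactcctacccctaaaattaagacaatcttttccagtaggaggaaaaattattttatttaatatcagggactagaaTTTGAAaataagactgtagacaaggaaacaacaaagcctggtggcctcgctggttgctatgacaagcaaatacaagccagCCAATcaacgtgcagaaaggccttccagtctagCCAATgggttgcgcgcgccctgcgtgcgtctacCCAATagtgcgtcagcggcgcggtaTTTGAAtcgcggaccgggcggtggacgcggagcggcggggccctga
The CHR of Kif4 begins at base 20 and those of Ccnb2 at -167 and 5, counted from the start. Of the members with a window, E2f1, Ccne1, Tk1, Tyms, Pcna, Mcm2 and Cdc45 among the replication genes hold no E2F core by these letters.

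**Figure D1:**
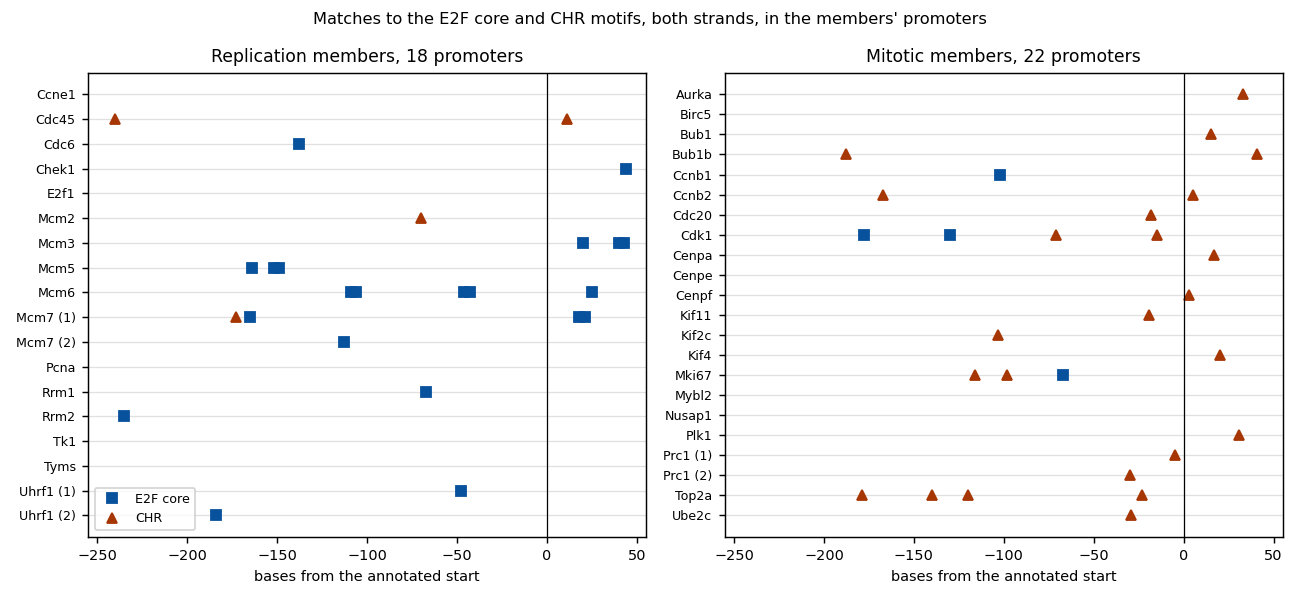
Positions of E2F core matches (blue squares) and CHR matches (brown triangles) in the promoter windows of the replication members (left, 18 windows) and mitotic members (right, 22 windows); the x axis gives bases from the annotated start, and each row is a window. E2F cores lie in 11 of the replication windows and CHR motifs in 17 of the mitotic windows.

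At 54 µg, NRCWE-043 and NRCWE-044 were each followed by higher transcripts of the replication machinery. Against control, 13 of 16 tested replication members rose after NRCWE-043 and 13 of 16 after NRCWE-044, and 0 fell. The 6 subunits of the MCM helicase (Mcm2 to Mcm7), PCNA, both subunits of ribonucleotide reductase (Rrm1 and Rrm2), thymidine kinase (Tk1), cyclin E1 (Ccne1), the transcription factor E2f1 and Uhrf1, which carries DNA methylation through replication, were called in both. Increases ran from 0.41 (Tk1) to 1.39 (Uhrf1) after NRCWE-043 and from 0.56 (Pcna) to 1.43 (Uhrf1) after NRCWE-044 on the log2 scale. After NRCWE-043, Tk1 was called under 8 of 27 alternative analyses, Rrm2 under 16 and Pcna under 18. Ccne1 was called under 23, and the other replication calls held under 25 or more. After NRCWE-044 the replication calls held under 18 (Ccne1) to 26 (Mcm5). Calls are adjusted p-values under 0.05 from limma with Benjamini-Hochberg adjustment over 25534 features; 10.2% of all features reached this after NRCWE-043 (5.33% higher, 4.88% lower) and 5.95% after NRCWE-044 (3.92% higher, 2.02% lower). The 2 comparisons share the 5 control arrays. In bulk tissue, more cells of a kind and more RNA per cell cannot be told apart.

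The MCM subunits unwind DNA at the fork. On the control arrays Mcm3 lay at -1.83, -1.23, -1.14, -1.14 and -0.61. After 54 µg of NRCWE-043 the 5 values of Mcm3 were -0.37, -0.13, 0.12, 0.25 and 0.63, and after NRCWE-044 they were -0.26, -0.18, -0.01, 0.31 and 0.33. Every treated array lay above every control array in both comparisons. The change of Mcm3 was 1.29 ± 0.21 (SE, adjusted p = 1.1e-04) for NRCWE-043 and 1.23 ± 0.21 (adjusted p = 3.4e-04) for NRCWE-044, a 2.45-fold and a 2.35-fold rise in limma with n = 5 a group.

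Mcm5, the window of which holds 3 E2F core matches, some of them overlapping, had control values of -2.32, -2.25, -2.19, -2.09 and -1.78. Its values were -1.60, -1.17, -1.12, -1.08 and -0.56 after NRCWE-043 and -1.24, -1.18, -1.15, -0.83 and -0.69 after NRCWE-044. Neither treated group overlapped the controls. In limma Mcm5 changed by 1.02 ± 0.16 (adjusted p = 7.8e-05) and 1.11 ± 0.16 (adjusted p = 5.0e-05). The other subunits rose by 0.93 and 1.01 (Mcm2), 0.78 and 0.75 (Mcm4), 0.97 and 1.00 (Mcm6) and 0.71 and 0.72 (Mcm7) for NRCWE-043 and NRCWE-044 in turn.

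Uhrf1 had the largest change of the replication members and also the widest standard error. Its control values were -4.36, -4.00, -3.88, -3.11 and -3.07. They were -2.89, -2.45, -2.29, -2.22 and -1.61 after NRCWE-043, and -2.74, -2.52, -2.26, -1.95 and -1.77 after NRCWE-044. The treated arrays all lay above the controls, and the changes were 1.39 ± 0.37 (adjusted p = 0.014) and 1.43 ± 0.37 (adjusted p = 0.017) in limma.

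Pcna is the sliding clamp of the replication fork. Its control values were -1.86, -1.85, -1.84, -1.72 and -1.65. After NRCWE-043 they were -1.61, -1.41, -1.35, -1.35 and -1.08, and after NRCWE-044 they were -1.33, -1.26, -1.21, -1.19 and -1.11. Neither group overlapped the controls, and the changes in limma were 0.42 ± 0.13 (adjusted p = 0.03) and 0.56 ± 0.13 (adjusted p = 0.0063).

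Ribonucleotide reductase makes deoxynucleotides from a large subunit, Rrm1, and a small one, Rrm2, that is made in S phase. Control values of Rrm1 were -3.10, -2.96, -2.78, -2.67 and -2.67. They were -2.62, -2.08, -2.02, -2.0 and -1.66 after NRCWE-043 and -2.26, -2.15, -2.05, -1.99 and -1.97 after NRCWE-044, with no overlap in either. The change of Rrm1 was 0.76 ± 0.13 (adjusted p = 3.4e-04) and 0.75 ± 0.13 (adjusted p = 6.8e-04) in limma. Rrm2 had control values of -4.28, -4.20, -3.50, -3.43 and -3.26, against -3.48, -3.00, -2.88, -2.84 and -2.33 after NRCWE-043 and -3.19, -3.07, -2.69, -2.37 and -2.25 after NRCWE-044. The lowest NRCWE-043 array overlapped the controls and the NRCWE-044 arrays did not. The change of Rrm2 in limma was 0.83 ± 0.26 (adjusted p = 0.039) and 1.02 ± 0.26 (adjusted p = 0.015).

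E2f1 and Ccne1 act at entry into S phase. Control values of E2f1 were -2.10, -1.73, -1.73, -1.70 and -1.48, against -1.61, -1.12, -0.94, -0.73 and -0.57 after NRCWE-043 and -1.27, -1.18, -1.15, -0.92 and -0.91 after NRCWE-044. The lowest NRCWE-043 array lay within the controls, and the NRCWE-044 arrays lay above them. E2f1 changed by 0.75 ± 0.14 (adjusted p = 6.8e-04) and 0.66 ± 0.14 (adjusted p = 0.0039) in limma. Ccne1 had control values of -2.10, -2.02, -1.73, -1.54 and -1.5, against -1.44, -1.34, -1.07, -0.99 and -0.71 after NRCWE-043 and -1.32, -1.28, -1.15, -1.09 and -0.78 after NRCWE-044. These did not overlap, and the changes of Ccne1 were 0.66 ± 0.19 (adjusted p = 0.02) and 0.65 ± 0.19 (adjusted p = 0.033).

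The replication members that were not called were Cdc6, which loads the helicase, Cdc45, which joins it at the fork, and Tyms, which makes thymidylate. Tyms differed from control by 0.02 (95% interval -0.25 to 0.29) after NRCWE-043 and by 0.06 (-0.21 to 0.33) after NRCWE-044. Cdc6 differed by 0.45 (0.07 to 0.83, adjusted p = 0.13 in limma) and 0.16, and Cdc45 by -0.04 and 0.27; both lay above background on 1 of 5 control arrays. In all, the arrays of NRCWE-043 lay wholly above control for 7 replication members, beside 4.52% of all features, and those of NRCWE-044 for 13, beside 3.73%.

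Against the 14 members called after NRCWE-043, 9 were called without control sample 15 or 30 and 8 without sample 19 of NRCWE-043. Without the 5 chosen arrays with heart or adipose markers, 11 were called. For NRCWE-044 the same 5 arrays include 3 treated ones, and without them 1 member, Mcm5, was called (change 1.04, adjusted p = 0.031 in limma), while Mcm3 stood at 1.18 (adjusted p = 0.071); median centring of the arrays in place of loess left 7 called members for NRCWE-043 and 0 for NRCWE-044, where it also left 43 features called in all and a replication median of 0.64 with 16 of 16 above 0.

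**Figure D2:**
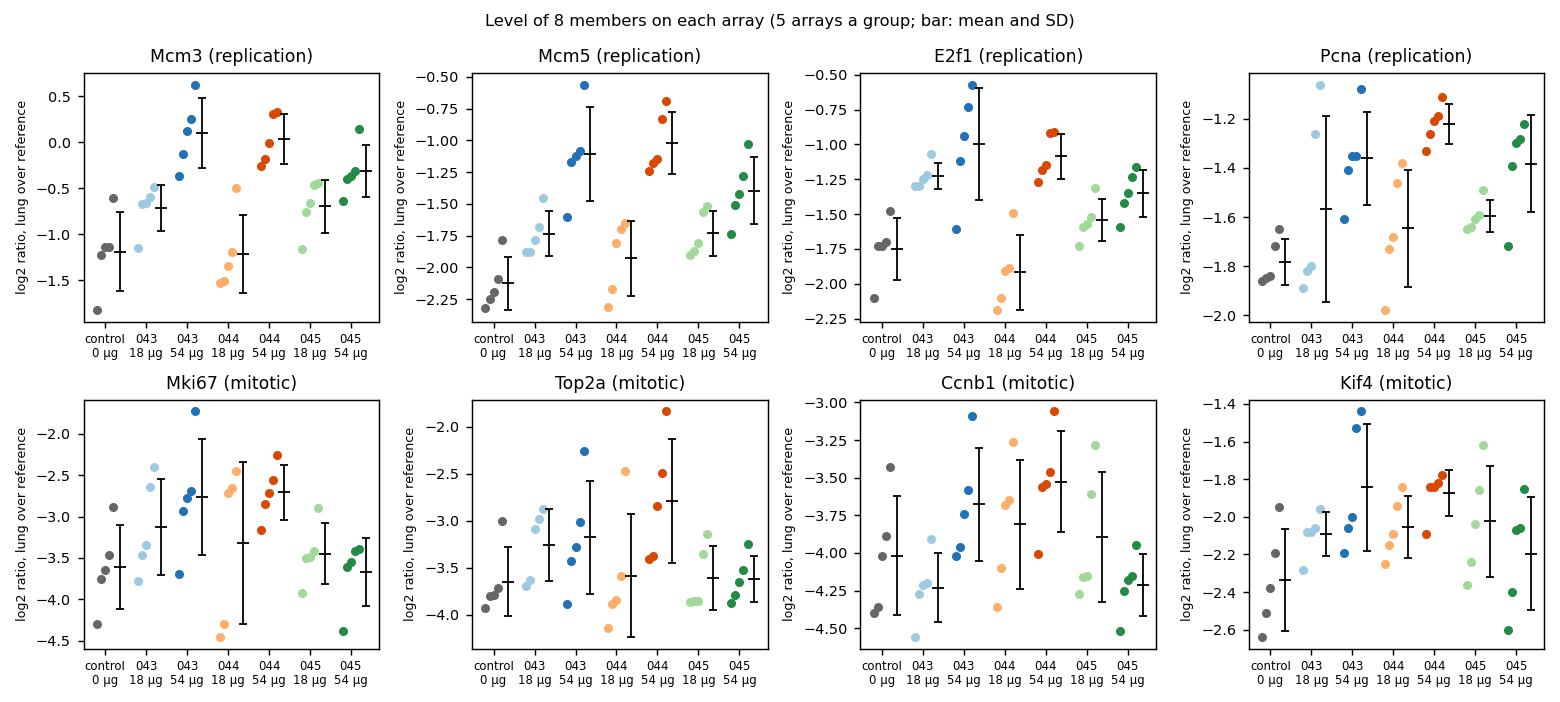
Log2 ratio of lung to reference (y axis) on each array for 4 replication members (top) and 4 mitotic members (bottom) in the 7 groups of 5 arrays (x axis: material and dose); dots are arrays, drawn in order of value, and the bar gives mean and SD. Mcm3 and Mcm5 lie above all controls at 54 µg of NRCWE-043 and NRCWE-044, while Mki67, Top2a, Ccnb1 and Kif4 overlap the controls in every group.

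Mitotic transcripts were called in few cases, and their groups overlapped the controls for every member. Against control at 54 µg, 1 of 24 tested mitotic members rose after NRCWE-043 (Kif4) and 0 rose after NRCWE-044, with 0 falling; 10.2% and 5.95% of all features were called. The median change over the 24 was 0.32 after NRCWE-043 and 0.40 after NRCWE-044, beside 0.76 and 0.74 over the 16 replication members and 0.01 and 0 over all features. Under 4 other scalings the NRCWE-043 median ran from 0.09 (scale normalization, 16 of 24 above 0) to 0.60 (median centring, 24 of 24), and the NRCWE-044 median from 0.29 to 0.38. At an unadjusted p under 0.05, 6 of 24 mitotic members passed after NRCWE-043 (25%, beside 23% of all features) and 11 after NRCWE-044 (45.8%, beside 19.5%). The count after NRCWE-043 is near the background share.

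Mki67, the gene of the proliferation marker Ki-67, lay at -4.30, -3.75, -3.65, -3.47 and -2.88 in controls. Its values were -3.69, -2.93, -2.78, -2.69 and -1.73 after NRCWE-043, and -3.16, -2.85, -2.71, -2.56 and -2.26 after NRCWE-044. Both groups overlapped the controls, whose SD was 0.51. Differences of 0.85 ± 0.35 (adjusted p = 0.13) and 0.91 ± 0.35 (adjusted p = 0.13) did not pass in limma, and a second Mki67 probe gave 0.82 and 0.80.

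Top2a, a topoisomerase that untangles chromosomes, had control values of -3.93, -3.80, -3.79, -3.72 and -3.00. They were -3.89, -3.43, -3.28, -3.02 and -2.26 after NRCWE-043 and -3.41, -3.38, -2.84, -2.49 and -1.84 after NRCWE-044. A single control array lay far above the other controls and inside both treated groups. The differences were 0.47 ± 0.29 (adjusted p = 0.35) and 0.86 ± 0.29 (adjusted p = 0.077) in limma.

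Ccnb1, cyclin B1, the partner of Cdk1, lay at -4.40, -4.36, -4.02, -3.89 and -3.43 in controls. It lay at -4.02, -3.96, -3.74, -3.58 and -3.09 after NRCWE-043 and at -4.01, -3.56, -3.54, -3.46 and -3.06 after NRCWE-044. The groups overlapped, at differences of 0.34 and 0.49 (adjusted p = 0.36 and 0.18 in limma). Its other tested probes gave -0.03 and -0.10 for NRCWE-043 and 0.18 and 0.14 for NRCWE-044, so the probes of Ccnb1 disagree.

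Birc5, survivin of the chromosomal passenger complex, had control values of -4.39, -4.05, -3.82, -3.64 and -3.09. Values were -4.15, -3.14, -2.88, -2.88 and -1.99 after NRCWE-043, and -3.45, -3.32, -2.83, -2.78 and -2.41 after NRCWE-044. Both overlapped the controls. The differences of 0.79 and 0.84 (adjusted p = 0.12 each in limma) shrank to 0.31 and 0.43 on the second probe.

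Kif4 was the mitotic member called after NRCWE-043. It lay at -2.64, -2.51, -2.38, -2.19 and -1.95 in controls, 3 of which were above background, and at -2.19, -2.06, -2.0, -1.53 and -1.44 after NRCWE-043. These overlap in the range of the top controls, and the change was 0.49 ± 0.15 (adjusted p = 0.031 in limma), held under 17 of 27 alternatives. After NRCWE-044 its values were -2.09, -1.84, -1.84, -1.82 and -1.78, a difference of 0.46 ± 0.15 (adjusted p = 0.063).

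Aurka, a spindle kinase, had control values of -3.87, -3.81, -3.81, -3.64 and -3.26. It had -3.78, -3.27, -3.24, -3.24 and -2.93 after NRCWE-043 and -3.64, -3.33, -3.25, -3.20 and -2.80 after NRCWE-044. The highest control lay inside both groups, at differences of 0.39 (adjusted p = 0.13) and 0.43 (adjusted p = 0.12) in limma. Foxm1, which switches on mitotic genes, lay at -3.30, -3.05, -2.95, -2.76 and -2.34 in controls, at -3.18, -2.53, -2.41, -2.32 and -2.24 after NRCWE-043 and at -2.71, -2.54, -2.50, -2.49 and -2.33 after NRCWE-044. These groups overlapped as well, at differences of 0.34 and 0.36 (adjusted p = 0.23 and 0.24). Mybl2 differed from control by -0.30 after NRCWE-043 and by 0.27 after NRCWE-044, neither past the test. Other members lay near control, among them Plk1, a mitotic kinase, at 0.11 and 0.05, and Cenpa, the centromeric histone, at -0.01 and 0.10.

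**Figure D3:**
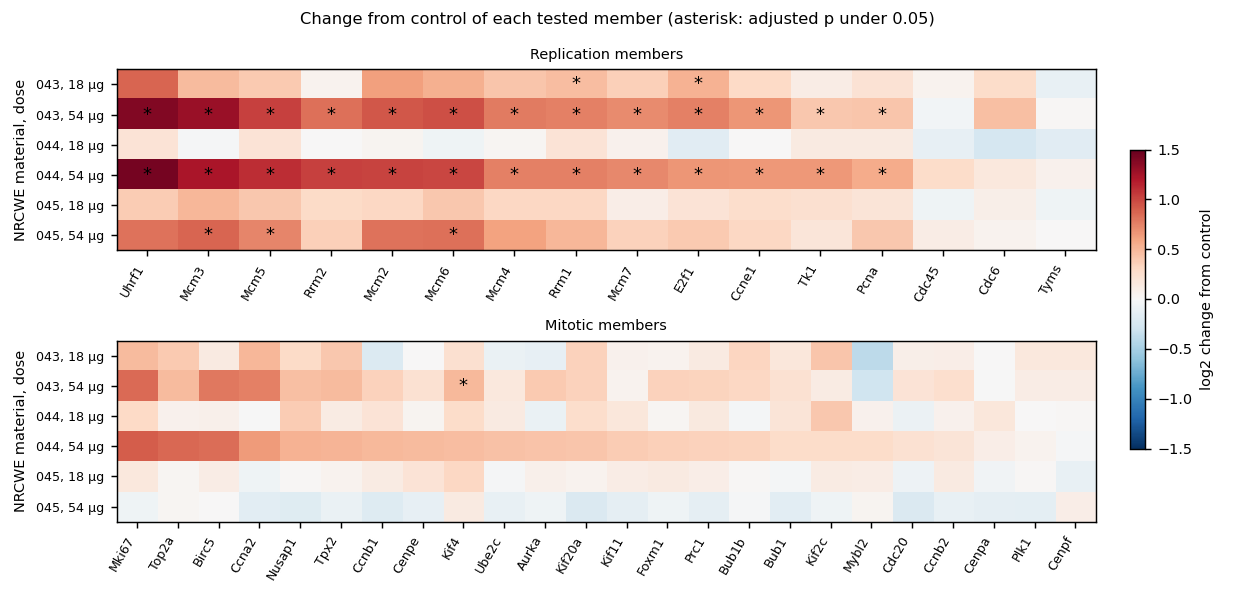
Log2 change from control of each tested member (columns) in the 6 comparisons with control (rows: material and dose), coloured from -1.5 (blue) to 1.5 (red); an asterisk marks an adjusted p under 0.05 in limma. Asterisks stand on 13 of 16 replication members at 54 µg of NRCWE-043 and of NRCWE-044, on 3 for NRCWE-045 at 54 µg, on 2 for NRCWE-043 at 18 µg and on 1 mitotic member; the mitotic colours for NRCWE-043 at 54 µg pale under scale normalization (16 of 24 above 0) and those for NRCWE-045 at 54 µg lie near 0, with 5 of 24 above 0, or 11 under median centring.

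The 54 µg dose of NRCWE-045 was followed by a rise of 3 MCM genes, with 0 of 24 mitotic members called. Called were Mcm3 (0.87 ± 0.21, adjusted p = 0.049), Mcm5 (0.73 ± 0.16, adjusted p = 0.035) and Mcm6 (0.83 ± 0.19, adjusted p = 0.047) in limma, 3 of 16 replication members, against 0.325% of all features (0.29% higher, 0.0352% lower). All 16 replication members lay above control in the mean, with a median of 0.40, and 10 of the 16 had an unadjusted p under 0.05, beside 9.38% of all features. Of the 24 mitotic members, 5 lay above control and 0 reached an unadjusted p under 0.05; their median was -0.11, or -0.01 under median centring with 11 above control.

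Mcm5 lay at -1.74, -1.51, -1.42, -1.28 and -1.03 after NRCWE-045, above all 5 controls. Mcm3 lay at -0.64, -0.40, -0.37, -0.31 and 0.14, and its lowest array reached the highest control. Mcm6 lay at -1.88, -1.60, -1.52, -1.24 and -1.12, against controls of -2.74, -2.45, -2.45, -2.09 and -1.80. Its lowest array overlapped the highest control. Values by array of Mcm6 and Uhrf1 were chosen for printing after their changes were seen.

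Mki67 lay at -4.38, -3.61, -3.55, -3.42 and -3.39 after NRCWE-045, with 4 arrays inside the control range and 1 below it, at a difference of -0.06 (95% interval -0.77 to 0.65). Uhrf1 lay at -3.89, -2.73, -2.61, -2.60 and -2.56, with 4 of 5 arrays above all controls, and its difference of 0.81 ± 0.37 did not pass (adjusted p = 0.48 in limma). Pcna lay at -1.72, -1.39, -1.30, -1.28 and -1.22, overlapping only through its lowest array, at a difference of 0.40 (adjusted p = 0.19). The wholly separated replication members numbered 2, beside 1.7% of all features.

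The calls for NRCWE-045 rest on few arrays: 0 members were called without control sample 2, 7, 15 or 30 or without sample 8, 14, 28 or 32 of NRCWE-045, and 5 without control sample 29 or sample 35 of NRCWE-045. With the slide as a random block 6 members were called, with array weights 7, and with normexp offset 0, median centring, scale normalization or a fit of the compared groups alone 0.

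At 18 µg few members were called. Rrm1 (0.46 ± 0.13, adjusted p = 0.046) and E2f1 (0.52 ± 0.14, adjusted p = 0.032) rose after NRCWE-043 in limma, 2 of 16 replication members, against 4.18% of all features called (1.35% higher, 2.84% lower). E2f1 lay at -1.30, -1.30, -1.25, -1.22 and -1.07, above all controls, and Rrm1 lay at -2.63, -2.50, -2.46, -2.21 and -2.11, also above them; such separation was seen for 1.35% of all features. Of the 16 replication members, 15 lay above control in the mean after NRCWE-043, at a median of 0.38. In limma, 9 of them had an unadjusted p under 0.05 (56.2%, beside 19.1% of all features). No mitotic member was called after NRCWE-043, with 1 of 24 at an unadjusted p under 0.05 and a median of 0.15.

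Both calls at 18 µg of NRCWE-043 are near the threshold: E2f1 was called under 18 of 27 alternatives and Rrm1 under 10, and the count was 0 without control sample 2, 15 or 30 or treated sample 10 and 1 without control sample 7 or treated sample 5 or 26. It was also 0 without the 5 chosen arrays with heart or adipose markers.

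After 18 µg of NRCWE-044, 0 of 40 members were called, with 0% of all features called. In limma 0 members had an unadjusted p under 0.05, beside 10.8% of all features. The median change was 0.02 over replication members (10 of 16 above control, but 1 of 16 under median centring) and 0.10 over mitotic members (20 of 24 above control), which turned to -0.04 (9 of 24) under median centring. After 18 µg of NRCWE-045, 0 of 40 members were called in limma beside 0% of all features, and 6 had an unadjusted p under 0.05 (2.78% of all features did). The medians were 0.27 over replication and 0.07 over mitotic members, and under median centring 0.13 and -0.05, the latter with 7 of 24 above 0. Mcm5 differed from control by 0.20 (95% interval -0.12 to 0.52) after NRCWE-044 and by 0.40 (0.08 to 0.72) after NRCWE-045, and 1 replication member of NRCWE-045 lay wholly above control, beside 0.208% of all features.

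The means of the 16 replication members were also taken array by array. In controls they were -2.22, -2.16, -2.16, -1.95 and -1.83. At 54 µg they were -1.76, -1.40, -1.38, -1.29 and -0.95 for NRCWE-043, and -1.53, -1.44, -1.28, -1.21 and -1.10 for NRCWE-044. Both groups lay above all controls. For NRCWE-045 at 54 µg the means were -2.0, -1.62, -1.55, -1.48 and -1.39, of which 4 lay above all controls and 1 among them. At 18 µg the means ran from -1.95 to -1.45 (NRCWE-043), -2.46 to -1.77 (NRCWE-044) and -2.0 to -1.64 (NRCWE-045), and all overlapped the controls.

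The means of the 24 mitotic members overlapped the controls in every group. Controls lay at -3.35, -3.30, -3.08, -3.04 and -2.63, and the 54 µg groups at -3.21 to -2.23 (NRCWE-043), -2.85 to -2.35 (NRCWE-044) and -3.41 to -3.04 (NRCWE-045). The highest control array exceeded the mean of the NRCWE-044 group. The replication mean less the mitotic mean was 0.68 to 1.47 in controls, 1.27 to 1.52, 1.25 to 1.45 and 1.42 to 1.66 at 54 µg of the 3 materials in number order, and 0.71 to 1.04 at 18 µg of NRCWE-044.

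**Figure D4:**
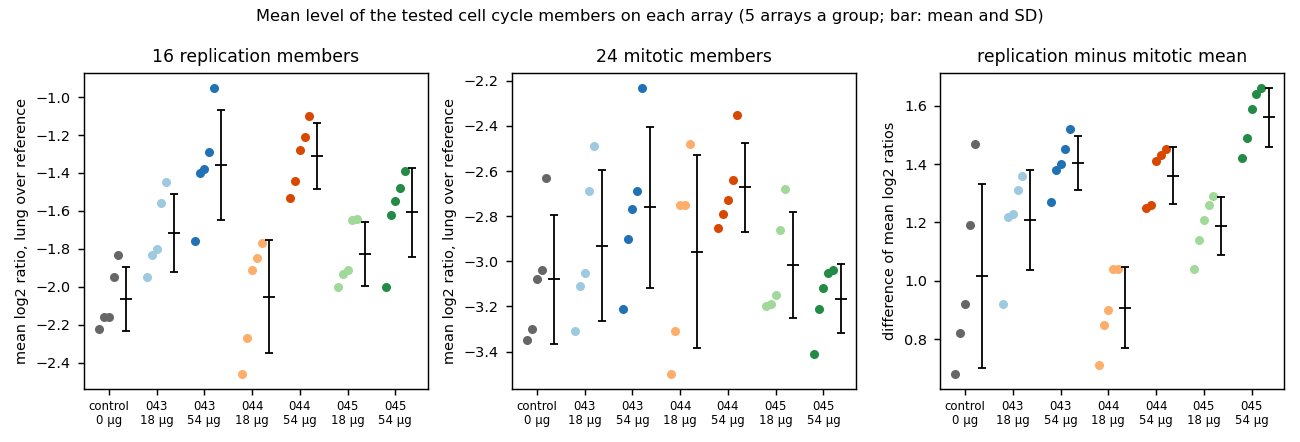
Mean log2 ratio of lung to reference (y axis) over the 16 replication members (left), the 24 mitotic members (middle) and their difference (right) on each array, by group (x axis: material and dose, 5 arrays each, drawn in order of value); bars give mean and SD. Replication means at 54 µg of NRCWE-043 and NRCWE-044 lie above all 5 controls, and mitotic means of every group overlap the controls.

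The arrays lay on 7 slides, and controls on 4 of them, so parts of the comparisons can be made within a slide. The replication mean at 54 µg less control was 0.30 and 1.03 on the 2 slides that held NRCWE-043 with controls, 0.96, 0.72 and 0.94 on 3 slides for NRCWE-044, and 0.50, 0.77, 0.22 and 0.74 on 4 slides for NRCWE-045. All of these within-slide differences were above 0. Each set 1 treated array against 1 or 2 controls, except that of 1.03, which set 2 treated arrays against 1 control. The materials share these controls, so the differences are not independent. The mitotic mean differed by -0.36 and 0.89 for NRCWE-043, by 0.50, 0.50 and 0.31 for NRCWE-044 and by -0.19, 0.30, 0.09 and -0.08 for NRCWE-045. With the slide as a fixed block in limma the called members numbered 13 for NRCWE-043, 16 for NRCWE-044 (13 replication and 3 mitotic) and 4 for NRCWE-045. The share of all features called in that fit is not given here. These counts therefore have no background beside them and do not show a rise particular to the members.

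Of the marker lists for other cells, the monocyte list lay apart from control at 54 µg. The mean log2 ratio of 9 tested monocyte markers of 10 (Ly6c2 was not tested) was 1.83 to 2.06 in controls, 2.50 to 2.93 at 54 µg of NRCWE-043, 2.51 to 3.39 at 54 µg of NRCWE-044 and 2.20 to 2.87 at 54 µg of NRCWE-045. At 18 µg it was 1.67 to 2.23, 1.48 to 2.10 and 1.93 to 2.50. The groups at 54 µg lay above all controls, as did most of their replication means. The other lists overlapped the controls at 54 µg. The myeloid precursor markers, 8 of 10 tested, ran from 1.13 to 2.48 in controls and, at 54 µg, from 1.51 to 2.26 (NRCWE-043), 1.82 to 2.67 (NRCWE-044) and 1.20 to 2.30 (NRCWE-045); the precursor genes Prtn3 and Ms4a3 were above background on 6 and 3 of 35 arrays. Thymocyte markers, 7 of 10 tested, stayed between -0.65 and -0.03, with Rag1 above background on 0 arrays. Lymphocyte markers, 10 of 10 tested, ran from -0.15 to 1.02 in controls and 0.31 to 1.26, 0.18 to 0.84 and 0.29 to 1.11 at 54 µg of the 3 materials in number order. Alveolar macrophage markers, 9 of 10 tested, ran from 3.05 to 3.56 in controls and 2.69 to 3.56, 3.13 to 3.85 and 2.99 to 3.53 at 54 µg. Erythroid precursor markers, 7 of 10 tested, ran from 2.56 to 3.55 in controls and 2.31 to 2.83, 2.75 to 3.19 and 2.46 to 3.04 at 54 µg. The part of these cells in the result was not tested.

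The 2 doses of a material were also compared directly. From 18 to 54 µg of NRCWE-044, 13 of 16 replication members and 1 of 24 mitotic members (Aurka, 0.53, adjusted p = 0.041) rose in limma, against 6.52% of all features called (4.92% higher, 1.6% lower). The largest steps were Mcm3 at 1.25 ± 0.21 (adjusted p = 2.1e-04), Uhrf1 at 1.23, Mcm6 at 1.07, Rrm2 at 1.01, Mcm2 at 0.98, Mcm5 at 0.91 and E2f1 at 0.83. Mcm3 lay at -1.53, -1.51, -1.35, -1.19 and -0.50 at 18 µg, below every array at 54 µg. The 2 groups did not overlap for 10 replication members, beside 3.72% of all features. Among the 10 is Cdc45, above background on 2 of 5 arrays at 18 µg and on 5 of 5 at 54 µg. It met the filter only through the 54 µg group, so its separation is not support.

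From 18 to 54 µg of NRCWE-043, Mcm3 (0.82 ± 0.21, adjusted p = 0.041) and Mcm5 (0.63 ± 0.16, adjusted p = 0.039) rose in limma, against 1.16% of all features (0.916% higher, 0.239% lower). Mcm3 lay at -1.15, -0.67, -0.66, -0.60 and -0.49 at 18 µg and above that range at 54 µg; separation of this kind held for 2 replication members, beside 1.68% of features. The median step was 0.34 over replication members and 0.13 over mitotic members, the latter turning to -0.10 under scale normalization. From 18 to 54 µg of NRCWE-045, 0 members were called in limma beside 0% of all features, 4 had an unadjusted p under 0.05 (3.82% of all features), and Mcm5 stepped by 0.34 (95% interval 0.02 to 0.66). Of the mitotic members 1 of 24 had a step above 0 for NRCWE-045, at a median of -0.16, and under median centring 17 did, at a median of 0.05.

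The NRCWE-044 step fell to 9 members without sample 4 or 34 at 54 µg and to 8 without sample 17 or 21 at 18 µg. It fell to 6 under scale normalization, and to 0 under median centring or without the 5 chosen arrays with heart or adipose markers. Under median centring the replication median was 0.83 with 16 of 16 above 0, beside 0.69 and 16 of 16 here. The NRCWE-043 step fell to 0 without sample 5 at 18 µg or sample 9, 16, 19 or 22 at 54 µg and to 1 without sample 10 or 20 at 18 µg.

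Set side by side at matched dose, the materials differed for few members. At 54 µg, Mybl2 was higher after NRCWE-044 than after NRCWE-043 (0.56 ± 0.16, adjusted p = 0.024 in limma), 1 of 40 members against 7.6% of all features (5.44% higher, 2.16% lower). Mybl2 lay at -2.12, -1.95, -1.93, -1.73 and -1.54 after NRCWE-044 and at -2.97, -2.45, -2.42, -2.27 and -1.96 after NRCWE-043, and the groups overlapped by their extreme arrays. On a second Mybl2 probe the means lay closer, at -2.93 after NRCWE-044 and -3.24 after NRCWE-043, and the groups overlapped. Of the replication members, Mcm5 differed by 0.09 (95% interval -0.23 to 0.40), Mcm3 by -0.06 (-0.48 to 0.36) and Pcna by 0.14 (-0.12 to 0.40).

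NRCWE-045 at 54 µg lay below both other materials for most members without a call in limma. Against NRCWE-044, 0 of 40 members and 0% of all features were called, while 21 members had an unadjusted p under 0.05, 17 of them mitotic, beside 6.03% of all features. The mitotic median was -0.49 and the replication median -0.26, and 6 mitotic members (Mki67, Ccna2, Bub1b, Birc5, Tpx2 and Nusap1) lay wholly lower, beside 0.572% of all features. Mki67 differed by -0.96 (95% interval -1.67 to -0.25, adjusted p = 0.61), Birc5 by -0.84 (-1.49 to -0.19) and Ccnb1 by -0.69 (-1.12 to -0.25). Against NRCWE-043, 0 of 40 members were called beside 5.39% of all features (3.89% higher, 1.5% lower), and 15 had an unadjusted p under 0.05, beside 15.5% of all features; without sample 3 of NRCWE-043 at 54 µg 5 were called.

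At 18 µg, E2f1 (-0.69 ± 0.14, adjusted p = 0.0014) and Mcm6 (-0.60 ± 0.19, adjusted p = 0.04) were lower after NRCWE-044 than after NRCWE-043 in limma, 2 of 40 members against 11% of all features (5.35% higher, 5.6% lower). E2f1 lay at -2.19, -2.10, -1.91, -1.89 and -1.49 after NRCWE-044, below all NRCWE-043 arrays, as held for 3.27% of all features. Mybl2 was higher after NRCWE-045 than after NRCWE-043 (0.51 ± 0.16, adjusted p = 0.043), 1 of 40 members against 8.52% of all features (6% higher, 2.52% lower). On the second Mybl2 probe the means lay closer, at -3 after NRCWE-045 and -3.3 after NRCWE-043, and the groups overlapped. Between NRCWE-045 and NRCWE-044, 0 members were called beside 0.45% of all features (0.364% higher, 0.0862% lower), and 3 had an unadjusted p under 0.05, beside 13.2% of all features.

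Between NRCWE-044 and NRCWE-043 at 18 µg, E2f1 was called under 24 of 25 alternatives and Mcm6 under 15. The count of calls moved with single arrays. In that comparison 1 member was called without sample 17 of NRCWE-044 or sample 10 or 20 of NRCWE-043. Without sample 23 of NRCWE-044 or sample 33 of NRCWE-043, 4 were called. The Mybl2 difference at 54 µg was lost without sample 3 or 22 of NRCWE-043 or 4 or 31 of NRCWE-044, and that at 18 µg without sample 10, 20 or 26 of NRCWE-043 or 1, 12, 13 or 27 of NRCWE-045, where leaving out sample 25 of NRCWE-045 gave 2 calls.

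Whether a dose step differed between materials was tested in the same fit, and 0 of 40 members passed in the 3 contrasts, each with 0% of all features called. Counts at an unadjusted p under 0.05 were 4 (NRCWE-044 less NRCWE-043), 2 (NRCWE-045 less NRCWE-043) and 11 (NRCWE-045 less NRCWE-044), beside 3.27%, 3.58% and 4.47% of all features. For Mcm3 the step of NRCWE-045 differed from that of NRCWE-044 by -0.87 (95% interval -1.47 to -0.28, unadjusted p = 0.0049 in limma), and for Mcm5 by -0.57 (-1.02 to -0.12). A dose step that passed for 1 material and not for another is therefore not shown to differ between them. Nor is NRCWE-045 at 54 µg shown to differ from the other materials, with 0 of 40 members called against either.

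Members moved together from array to array within groups. After group means were removed, the median Pearson correlation over 35 arrays was 0.578 for the 120 pairs of replication members, 0.645 for the 276 pairs of mitotic members and 0.487 for the 384 pairs across classes; it was 0.756 among the 6 MCM subunits. The highest was 0.938, for Mki67 with Ccna2. The arrays of a pair share RNA, labelling and normalization, so these are descriptions. The within-group SD was 0.26 in the median for replication members (0.21 to 0.63) and 0.35 for mitotic members (0.14 to 0.59).

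Genes of the same pathways outside the 44 members were counted from lists that were chosen with earlier results of these data known. The counts are descriptions and not independent support. Of 48 other replication genes, 43 were tested, and 21 rose after 54 µg of NRCWE-043 and 20 after 54 µg of NRCWE-044 in limma, with 0 falling. These are 48.8% of the list beside 10.2% of all features, and 46.5% beside 5.95%. Among those that rose were the helicase cofactor Gins1 (1.05 and 1.12), the loading factor Cdt1 (1.00 and 0.92), the nuclease Exo1 (1.00 and 0.96), Gins2 (0.86 and 1.02) and the histone chaperone subunit Chaf1b (0.92 and 1.00). After 54 µg of NRCWE-045, 0 of 43 were called, and 18 had an unadjusted p under 0.05, beside 9.38% of all features. The dose step called 18 of 43 for NRCWE-044 (41.9%, beside 6.52% of all features). It called 2 for NRCWE-043 (Fen1 at 0.75 and Orc6 at 0.48), or 4.65% beside 1.16%.

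Of 63 other mitotic genes, 54 were tested. After 54 µg of NRCWE-043, 10 rose and 2 fell in limma, and after 54 µg of NRCWE-044, 4 rose and 0 fell. These are 22.2% of the list beside 10.2% of all features, and 7.41% beside 5.95%, the latter near the background share. Trip13, which remodels checkpoint proteins (0.88 and 0.77), Cenpk of the kinetochore (0.87 and 0.98), Cks1b, a subunit of cyclin-dependent kinases (0.80 and 0.85), and Tacc3 of the spindle (0.74 and 0.73) rose in both. Ncapg2 of condensin (0.80) rose after NRCWE-043, while Hmmr (-0.62) and Pttg1 (-0.30) were lower after NRCWE-043. After 54 µg of NRCWE-045, 0 of 54 were called, and 3 had an unadjusted p under 0.05.

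Genes of G1 entry and its brakes, 31 of 33 tested, had 4 calls at most in a comparison with control. Called were 12.9% of the list after 54 µg of NRCWE-043, beside 10.2% of all features, and 6.45% after 54 µg of NRCWE-044, beside 5.95%. After 18 µg of NRCWE-043 the share was 6.45%, beside 4.18% of all features. These counts are near the background share. Ccnd1, cyclin D1, rose after NRCWE-043 at 18 µg (0.63 ± 0.12, adjusted p = 0.0012) and at 54 µg (0.57 ± 0.12, adjusted p = 0.0014) in limma, while it differed by 0.18 (adjusted p = 0.42) after 54 µg of NRCWE-044. E2f3 (0.61) and Rbl1 (0.39) rose and Tob1 (-0.37) fell after 54 µg of NRCWE-043, and Pkmyt1 (0.53) and Rbl1 (0.39) rose after 54 µg of NRCWE-044. Cdkn1c, a brake on cyclin-dependent kinases, fell after 18 µg of NRCWE-043 (-0.92, adjusted p = 0.036). Cdkn1a, the p53-controlled brake p21, was not called against control, at -0.90 and -0.96 after 18 and 54 µg of NRCWE-043 and 1.12 and 0.42 after NRCWE-044, but it was higher after NRCWE-044 than after NRCWE-043 at 18 µg (2.02, adjusted p = 1.3e-04) and 54 µg (1.38, adjusted p = 0.0072). Myc, Gadd45a and Ccnd2 were not called in any comparison with control.

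**Figure D5:**
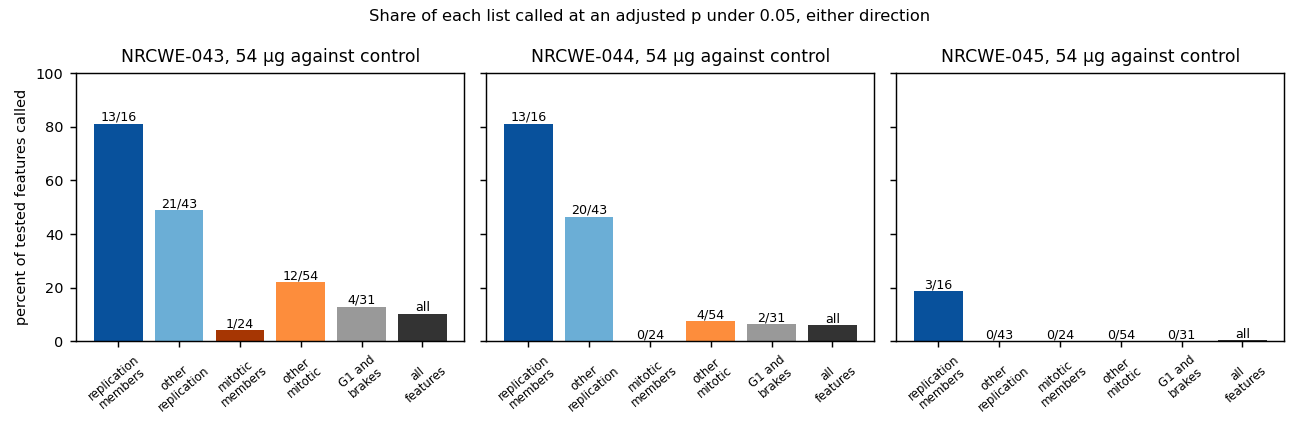
Share of tested features called at an adjusted p under 0.05 in limma, in either direction (y axis, percent, from 0), for 5 gene lists and for all features (x axis) in the 3 comparisons of 54 µg with control; numbers above the bars give called over tested. Replication members stand at 81.2% after NRCWE-043 and NRCWE-044 and 18.8% after NRCWE-045, with all features at 10.2%, 5.95% and 0.325%.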

How the data were processed

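Lung RNA (200 ng) was labelled with Cy5 and hybridised with Cy3-labelled reference RNA in the same orientation on 35 arrays. Per the file headers, the authors scanned the arrays with Feature Extraction 11.0.1.1, whose deposited files hold spot intensity in both channels; the deposited series values are log2 ratios, and how the authors normalized them is not given in the sources. They correlated at 0.997 to 1 with loess ratios computed here without background correction (column medians -0.04 to 0.018). The intensities were background-corrected (normexp, offset 50) and loess-normalized within each array, leaving out flagged spots (1403 probe values) and control spots, and spots of a probe were averaged. Probes entered the tests when 3 or more of the 5 arrays of some group showed them well above background in the lung channel, and the brightest tested probe stood for a gene. A linear model over all 35 arrays was fitted with limma 3.58.1 in R 4.3.3, p-values were adjusted by Benjamini-Hochberg within each of 18 comparisons over 25534 features, and an adjusted p under 0.05 was a call. The fit was tested on simulated data. The members and lists were chosen with earlier results of these data known. Array values are printed for Mki67, Top2a, Ccnb1, Cdk1, Foxm1, Mcm5, Pcna, Rrm2, Ccne1 and E2f1 and for the 4 replication and 4 mitotic members with the smallest p against control; of the other lists, up to 4 called genes with the largest change in each direction per comparison are named, and Ccnd1, Ccnd2, Cdkn1a, Myc and Gadd45a in any case.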

Additional observations from a re-analysis of the deposited data

Results flagged for a closer look

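Of 126 groups of 5 arrays looked at for a single array apart from the rest, 5 held one, and chance gives about 1 in 20. The lowest Mcm3 value at 18 µg of NRCWE-043 was -1.15, with the next at -0.67. The lowest Rrm2 value at 54 µg of NRCWE-045 was -4.09 (next -3.30), and the lowest Mki67 value in that group was -4.38 (next -3.61). The highest Top2a value in controls was -3.00 (next -3.72). The lowest Kif4 value at 54 µg of NRCWE-044 was -2.09 (next -1.84).

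Differences between materials at a matched dose passed the test in limma for 4 pairs of member and comparison. Mcm6 differed by -0.60 and E2f1 by -0.69 for NRCWE-044 less NRCWE-043 at 18 µg. Mybl2 differed by 0.56 for NRCWE-044 less NRCWE-043 at 54 µg and by 0.51 for NRCWE-045 less NRCWE-043 at 18 µg.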

How the results depend on the processing

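No paired analysis was possible because the sample numbers run from 1 to 35 and no groups share one; arrays were matched only by slide, as a block and within slides. Counts of called members moved by over 1.5 times in these cases, and the cause was not tested. With normexp offset 0 the counts were 0 (NRCWE-045 at 54 µg against control), 0 (NRCWE-043 dose step) and 4 (NRCWE-044 less NRCWE-043 at 18 µg), and with the deposited values 1 for NRCWE-045 at 54 µg. Median centring gave 7 for NRCWE-043 at 54 µg, 1 for NRCWE-045 less NRCWE-043 at 54 µg, and 0 for NRCWE-043 at 18 µg, NRCWE-044 and NRCWE-045 at 54 µg, the NRCWE-043 and NRCWE-044 dose steps and the other 3 material differences with a call. Scale normalization gave 6 for the NRCWE-044 step, 1 for the NRCWE-043 step and for NRCWE-044 less NRCWE-043 at 18 µg, and 0 for NRCWE-043 at 18 µg, NRCWE-045 at 54 µg and NRCWE-045 less NRCWE-043 at 18 µg. Cy5 alone gave 1 (NRCWE-045 at 54 µg), 5 (NRCWE-043 step), 6 (NRCWE-044 less NRCWE-043 at 18 µg), 2 (NRCWE-045 less NRCWE-043 at 54 µg) and 0 for both Mybl2 comparisons. Without the filter, 1 was called for NRCWE-043 at 18 µg, NRCWE-045 at 54 µg, the NRCWE-043 step and NRCWE-044 less NRCWE-043 at 18 µg, and 0 for NRCWE-045 less NRCWE-043 at 18 µg; the mean of probes gave 0 for both Mybl2 comparisons. With the slide as a fixed or random block, NRCWE-044 less NRCWE-043 at 18 µg gave 5 and NRCWE-045 less NRCWE-043 at 18 µg gave 2; the fixed block gave 1 for the NRCWE-043 step, and the random block 6 for NRCWE-045 at 54 µg and 1 for NRCWE-045 less NRCWE-043 at 54 µg. The compared groups alone gave 8 for the NRCWE-044 step, 1 for NRCWE-045 less NRCWE-043 at 54 µg and 0 for NRCWE-043 at 18 µg, NRCWE-045 at 54 µg, the NRCWE-043 step and NRCWE-044 less NRCWE-043 at 54 µg. A trended robust fit gave 1 for NRCWE-043 at 18 µg and 0 for NRCWE-045 less NRCWE-043 at 18 µg. Array weights gave 1 (NRCWE-043 at 18 µg), 7 (NRCWE-045 at 54 µg), 5 (NRCWE-043 step), 5 (NRCWE-044 less NRCWE-043 at 18 µg) and 3 (NRCWE-045 less NRCWE-043 at 54 µg). Without the 5 chosen arrays with heart or adipose markers, 1 was called for NRCWE-044 at 54 µg. The count was then 0 for NRCWE-043 at 18 µg, the NRCWE-044 step and NRCWE-044 less NRCWE-043 at 54 µg.

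Leaving out 1 array at a time gave 0 to 3 (NRCWE-043 at 18 µg), 8 to 17 (NRCWE-043 at 54 µg), 10 to 15 (NRCWE-044 at 54 µg), 0 to 5 (NRCWE-045 at 54 µg), 0 to 2 (NRCWE-043 step), 8 to 15 (NRCWE-044 step), 1 to 4 (NRCWE-044 less NRCWE-043 at 18 µg), 0 to 2 (NRCWE-045 less NRCWE-043 at 18 µg), 0 to 1 (NRCWE-044 less NRCWE-043 at 54 µg) and 0 to 5 (NRCWE-045 less NRCWE-043 at 54 µg). Signs reversed for uncalled mitotic members of NRCWE-045 at 54 µg. Foxm1 turned to 0.03 (median centring), 0.00 (Cy5 alone) and 0.01 (slide fixed). Mki67 turned to 0.08 (median centring and slide fixed), 0.01 (slide random), 0.02 (array weights) and 0.14 (without the 5 arrays). Top2a turned to -0.03 (Cy5 alone) and -0.05 (without control samples 7 and 29), and Ccnb1 to 0.00 (without the 5 arrays). With 1 array left out, Foxm1 ran from -0.16 to 0.08, Mki67 from -0.23 to 0.12 and Top2a from -0.07 to 0.19. Among the member changes followed by setting, 944 kept direction and side of the threshold, 172 fell below it, 4 passed it and 11 reversed. Counted for every called member over its alternatives, calls were kept in 1070 cases and lost in 309.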
